A study of Homo sapiens with 24 samples.

Results

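The untreated cells of 2 diffuse large B-cell lymphoma lines, U-2932 and OCI-LY19, were compared across all expressed genes. The members were the 4 RNA-seq libraries labelled 0 h for these lines, 2 for each line, of 16 RNA-seq libraries and 24 samples in the series. The series tested TAK-981, an inhibitor of SUMOylation, in 4 lymphoma lines sampled at 0 h and after 8 h. Poly(A)-selected RNA was sequenced with 92 spike-in RNAs in the count table. Both lines are labelled as wild type and as diffuse large B-cell lymphoma B cells. The 0 h libraries carry the treatment label TAK-981 with a time of 0 h, and stand here as the untreated cells. Each line is 1 established culture, and U-2932 is known to hold subpopulations that differ in their surface antigens. Whether the replicates are separate cultures is not in the labels. The p-values rest only on the spread between replicate libraries, shared over all 16 RNA-seq libraries. That spread may be technical.

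Diffuse large B-cell lymphomas are commonly divided into a germinal centre B-cell-like class and an activated B-cell-like class. The germinal centre class expresses BCL6, the repressor that holds B cells in the germinal centre state, together with MME (CD10) and LMO2. The activated class expresses IRF4 and other genes of the path to the plasma cell, and often has active NF-kB, a transcription factor family that drives survival and inflammatory genes in activated B cells. Outside these data, U-2932 is usually placed in the activated class and OCI-LY19 in the germinal centre class. As described below, the libraries labelled OCI-LY19 did not match what is known of that line, so its class may not hold for them.

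Gene counts summed to between 17223675 and 18692586 per library, and the spike-in RNAs took between 0.530% and 0.620% of all counts. In a check for mixed-up samples, 2 of the 4 libraries did not match what is known of the line in their label, so they are called the libraries labelled OCI-LY19 or, for short, OCI-LY19. At 0 h the mean log2 levels of OCI-LY19 correlated with those of OCI-LY3 at r = 0.974 across 17327 genes, and with those of U-2932 at r = 0.7955 (across genes, which are not independent replicates). No gene with at least 10 CPM (counts scaled to library size with TMM factors) in OCI-LY19 had a count of 0 in both OCI-LY3 libraries. The reverse also held for 0 genes. OCI-LY3 had means of 6.02 CPM of IRF4 and 111 CPM of MME, beside 4.94 and 102 CPM in OCI-LY19. Whether the libraries labelled OCI-LY19 and OCI-LY3 hold the same line was not tested. Agreement of the replicates depended on the measure. The chi-square per degree of freedom, which is 1 for counting noise, was larger in OCI-LY19 than in U-2932, at 13.5 against 5.46. On the log2 scale the replicates of OCI-LY19 differed by less. The SD of their difference over genes was 0.594 against 0.72, and the median absolute difference 0.164 against 0.175. B-cell identity was plain in both lines, since all 10 core B-cell markers had counts in every library compared. CD79A, which pairs with CD79B to signal for the B-cell receptor, had 1082 and 962 CPM in U-2932 against 432 and 399 CPM in OCI-LY19. CD20, encoded by MS4A1, had 725 and 771 CPM in U-2932 against 507 and 569 CPM in OCI-LY19. Markers of other cells were sparse: 15 of 22 T and NK cell markers, 15 of 20 monocyte and macrophage markers and 15 of 20 epithelial, stromal and endothelial markers stayed under 1 CPM in all 4 libraries. CD3D, CD2, CD163, S100A8, CDH5 and COL3A1 had no count in any of them. The summed level of the T and NK markers was 80.6 to 89.1 CPM in U-2932 and 18.6 to 19.4 CPM in OCI-LY19, most of it from TRBC2, a T-cell receptor constant gene with a near-identical neighbour, with 60.4 and 55.9 CPM in U-2932 against 11.4 and 13.9 CPM in OCI-LY19. COL1A1, a collagen gene of stromal cells, had 68.9 to 81.1 CPM in OCI-LY19 and 0.641 to 1.12 CPM in U-2932.

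The transcriptomes of the lines differed at most expressed genes. Of 17327 genes tested with edgeR's quasi-likelihood test, 6411 (37.0%) were higher in U-2932 and 5823 (33.6%) were lower at a Benjamini-Hochberg adjusted p of 0.05. A difference beyond 2-fold, tested with edgeR's glmTreat, was found for 5644 genes: 3189 (18.4%) higher in U-2932 and 2455 (14.2%) lower. The median log2 difference of all genes tested, U-2932 minus OCI-LY19, was 0.03. Scaling by the spike-in RNAs in place of TMM moved that median to -0.21, a shift of -0.24, and the share of called genes that were higher in U-2932 from 52.4% to 42.0%. Differences below are on the TMM scale and read against the background of all genes. Unless a value is said not to pass, each named difference passed the adjusted p of 0.05. Errors after ± are standard errors of log2 differences.

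**Figure D1:**
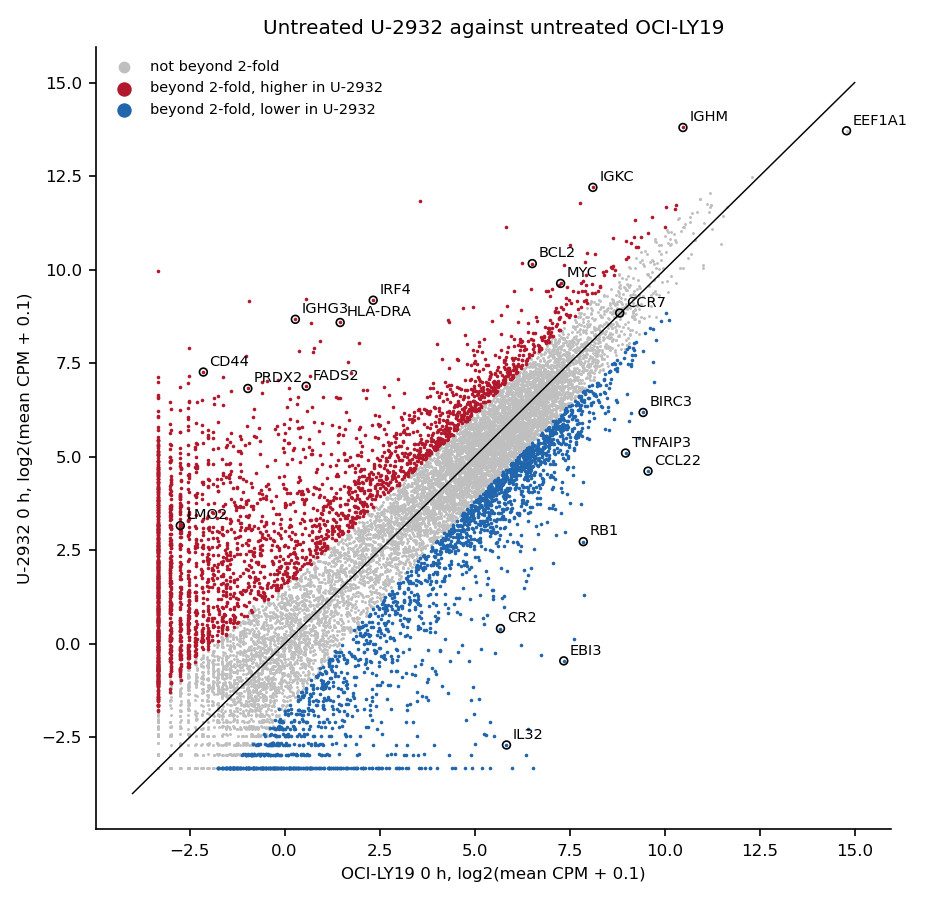
Mean level of each of 15272 tested genes with a chromosome in RefSeq, OCI-LY19 on the x axis and U-2932 on the y axis, both as log2(mean CPM + 0.1) over 2 libraries. Coloured points passed the test beyond 2-fold, the line marks equality, and circles mark named genes such as IRF4 and IGHM above the line and TNFAIP3 and RB1 below it.

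The 10 largest differences in CPM among the genes ranked were in translation, secretory, immunoglobulin and cytoskeletal genes. They included IGHM, the mu heavy chain, and IGKC, the kappa light chain. The ranking left out mitochondrially encoded genes, pseudogenes, antisense transcripts and immunoglobulin variable segments. Mitochondrial ribosomal RNA, whose share is given below, was therefore not ranked. IGHM had 15048 and 13455 CPM in U-2932 against 1371 and 1489 CPM in OCI-LY19. LMAN1, a cargo receptor that carries glycoproteins from the endoplasmic reticulum, had 3338 and 3675 CPM in U-2932 against 222 and 216 CPM in OCI-LY19. SEC11C, a catalytic subunit of the signal peptidase, had 2314 and 2206 CPM in U-2932 against 54.6 and 59.3 CPM in OCI-LY19, a log2 difference of 5.31 ± 0.08. ACTG1, a cytoskeletal actin, and the ribosomal protein genes RPS16, RPS19, RPLP0 and RPLP1 were also higher in U-2932. EEF1A1, the elongation factor that brings aminoacyl-tRNA to the ribosome, went the other way. It had 13800.0 and 13019 CPM in U-2932 against 28788 and 27713 CPM in OCI-LY19, the largest of these 10 differences, and was the only one of these 10 genes that was lower in U-2932.

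A set of genes was on in only one of the lines at this depth. With at least 10 CPM in one line and 0 counts in both libraries of the other, 128 genes were seen in U-2932 alone and 14 in OCI-LY19 alone. Against a floor of 3 counts over the other line's libraries, the first were at least 137-fold to at least 13418-fold higher. The largest after immunoglobulin variable segments was CDH2, encoding N-cadherin, a cell adhesion molecule more usual in neural and mesenchymal cells. It had 139 and 140.3 CPM in U-2932, at least 1891-fold higher. MGST1, a membrane-bound glutathione transferase, had 126 and 132 CPM. The lysosomal membrane protein gene LAMP5 had 98.4 and 104 CPM. ELL2, an elongation factor known for driving immunoglobulin secretion in plasma cells, had 88.1 and 103 CPM. PDCD1, which encodes the checkpoint receptor PD-1, had 54.5 and 49.7 CPM, and JAK3, the kinase of common gamma chain cytokine receptors, had 26.9 and 24.0 CPM. ITM2C, HMGN3, TRIB3, COCH, HES6, RAB4A and ABHD10 completed the 12 genes with the largest log2 difference. None of these 128 genes reached 10 CPM in the libraries labelled OCI-LY3, whereas 33 of them did in SU-DHL-10, the remaining line. That name is the one in the sample labels, while the description of the series lists SU-DHL4 in its place, and which of them these libraries hold is uncertain. HMGN3, TRIB3 and COCH were among those, at 44.7, 34.0 and 52.8 CPM on average.

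In the opposite direction, TMX3, a thioredoxin-related protein of the endoplasmic reticulum, had 62.5 and 63.3 CPM in OCI-LY19 and no count in U-2932, at least 747-fold lower. PHKA1, a regulatory subunit of phosphorylase kinase, had 42.6 and 42.1 CPM, and SLCO2B1, an organic anion transporter, 32.8 and 28.0 CPM. PURPL, CASC11, APOOL and UACA likewise had 0 counts in U-2932. IL32, an inflammatory cytokine gene, and MYADM, GPAT2, LGMN and CECR7 had at most 0.214 CPM in any U-2932 library. All 14 genes seen in OCI-LY19 alone reached 10 CPM in OCI-LY3, and 6 of them did in SU-DHL-10.

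Genes of the path to the plasma cell were higher in U-2932. Of 30 tested genes in the list for plasma cells and activated B cells, 25 were higher in U-2932 and 3 were lower, and 17 and 2 passed beyond 2-fold. Their median log2 difference was 1.95, beside 0.03 for all genes. IRF4, the transcription factor that takes B cells out of the germinal centre towards the plasma cell, had 563 and 599.8 CPM in U-2932 against 5.49 and 4.38 CPM in OCI-LY19. The difference was 6.87 ± 0.12 on the log2 scale (edgeR adjusted p = 5e-31), and the lines did not overlap. Of all 17327 genes tested, 7426 likewise had both U-2932 libraries above both of OCI-LY19, and 6884 had both below. Fewer cells with a transcript and less of it per cell cannot be told apart in such bulk libraries. PRDM1, encoding BLIMP1, the repressor that completes that step, had 45.2 and 52.3 CPM in U-2932 against 5.25 and 7.24 CPM in OCI-LY19. XBP1, the factor that builds the secretory apparatus, had 265 and 267 CPM in U-2932 against 72.0 and 74.7 CPM in OCI-LY19. The receptors for the B-cell survival factors BAFF and APRIL were also higher in U-2932. TNFRSF13B, encoding TACI, had 244 and 237 CPM in U-2932 against 1.86 and 1.38 CPM in OCI-LY19, and TNFRSF17, encoding BCMA, had 82.0 and 78.1 CPM in U-2932 against 0.907 and 0.968 CPM in OCI-LY19. CD44, a hyaluronan receptor of activated lymphocytes, was near absent in OCI-LY19, at 160.5 and 147 against 0 and 0.255 CPM. PIM2, a survival kinase, had 706 and 731 against 91.3 and 89.0 CPM, and the cyclin gene CCND2 had 6.25 and 5.52 against 0.143 and 0.102 CPM. STAT3, FOXP1 and BATF, transcription factors that mark the activated class, were each about 2-fold higher, with log2 differences of 1.08 ± 0.08, 1.05 ± 0.10 and 0.99 ± 0.11. The 3 lower genes were CD38, ETV6 and SLAMF7. CD38, an ectoenzyme of germinal centre cells and plasma cells alike, had 17.8 and 25.8 against 118 and 135 CPM. SLAMF7, a surface antigen of plasma cells, had 34.2 and 25.8 against 48.5 and 39.5 CPM.

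**Figure D2:**
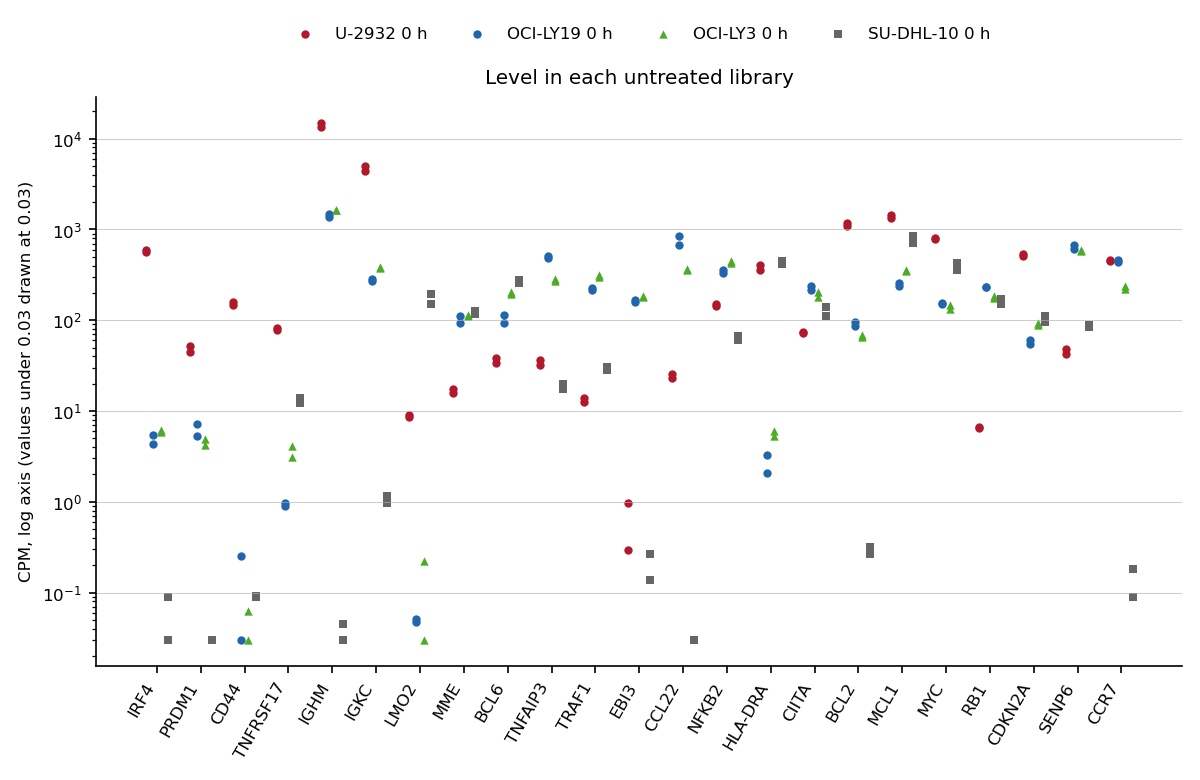
CPM of 23 genes in each untreated library on a log axis, with 2 points for each line (circles U-2932 in red and OCI-LY19 in blue, triangles OCI-LY3, squares SU-DHL-10), and values under 0.03 CPM drawn at 0.03. U-2932 stands at the top for IRF4, CD44, IGHM and BCL2 and at the bottom for RB1, and the OCI-LY19 points lie close to those of OCI-LY3.

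Immunoglobulin constant genes were higher in U-2932 for 10 of 11 tested, with a median log2 difference of 2.93. Their summed level was 18541 to 20799 CPM in U-2932 and 1810 to 1957 CPM in OCI-LY19. IGKC had 5010.1 and 4392 CPM in U-2932 against 271 and 283 CPM in OCI-LY19. The gamma genes did not move together. IGHG3 had 417 and 399 CPM in U-2932 against 0.859 and 1.38 CPM in OCI-LY19, a log2 difference of 8.51 ± 0.13. IGHG1 had 20.5 and 19.5 CPM in U-2932 against 105 and 116 CPM in OCI-LY19, a log2 difference of -2.47 ± 0.09, and was the only one that was lower in U-2932. The lambda constant genes IGLC2 and IGLC3 were higher in U-2932 at far lower levels than IGKC, with 118 and 111 and 43.0 and 40.4 CPM. Constant genes of one locus share near-identical stretches, so the split of reads among gamma genes and among lambda genes is uncertain. SU-DHL-10 had IGLC2 at 589 CPM on average and IGKC at 1.06 CPM.

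The germinal centre list was split. Of 29 tested genes, 12 were higher and 15 lower in U-2932, with 8 and 9 beyond 2-fold and a median of -0.58. After the medians of gene-span deciles were subtracted the median was -0.32, and at 8 h of TAK-981 it was 0.57, with 18 higher and 7 lower. BCL6, which was 34.1 and 37.9 against 92.3 and 114 CPM, was lower in U-2932. MME had 15.7 and 17.6 against 93.7 and 111 CPM, and MYBL1, a MYB-family factor of germinal centre B cells, had 6.66 and 8.95 against 48.7 and 48.0 CPM. The receptor S1PR2, which keeps B cells inside the germinal centre, had 21.9 and 21.6 against 128 and 141 CPM, and GCSAM, a signalling adaptor of germinal centre cells, had 15.2 and 16.4 against 157 and 186 CPM. All 5 of these genes were lower in U-2932 with no overlap, as were 6884 of all 17327 genes tested. LMO2, also used as a germinal centre marker, ran against them, at 8.61 and 9.06 against 0.0477 and 0.051 CPM, beside a mean of 173 CPM in SU-DHL-10. Higher too was CCDC50, the list member with the smallest p, at 492 and 508 against 25.3 and 26.1 CPM. TCL1A, an AKT coactivator, had 319 and 294 against 26.2 and 27.5 CPM. SERPINA9 was also higher in U-2932, with a log2 difference of 0.88 ± 0.12.

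NF-kB genes were lower in U-2932. Of 34 tested subunits and regulators, 4 were higher and 23 lower, with 1 and 10 beyond 2-fold. Of 37 target genes, 6 were higher and 25 lower, with 5 and 15 beyond 2-fold, and the median was -1.03. The summed level of the targets was 2148 to 2194 CPM in U-2932 and 5565 to 5616 CPM in OCI-LY19. Among the subunits, REL had 6.66 and 8.85 against 44.2 and 48.1 CPM, NFKB2 151 and 143 against 356 and 329 CPM and NFKB1 109 and 121 against 152 and 161 CPM. RELA did not pass the test, with a log2 difference of 0.13 ± 0.07. Of the feedback inhibitors, TNFAIP3, encoding the ubiquitin-editing enzyme A20, had 31.7 and 36.6 CPM in U-2932 against 516 and 488 CPM in OCI-LY19. This was a log2 difference of -3.87 ± 0.08 (edgeR adjusted p = 7.9e-30). NFKBIA, encoding the inhibitor IkB-alpha, had 88.7 and 94.9 against 225 and 216 CPM. TRAF1, an adaptor of TNF receptors, had 13.7 and 12.7 against 229 and 214 CPM, and BIRC3, a ubiquitin ligase that guards against death receptor signals, had 64.3 and 80.8 against 655 and 729 CPM.

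Among secreted and surface targets, EBI3, a subunit of the cytokines IL-27 and IL-35, had 0.295 and 0.965 against 159.6 and 166 CPM. CCL22, a chemokine that draws regulatory T cells, had 25.5 and 23.4 against 676 and 836 CPM, and the interferon-responsive chemokine CXCL10 had 0.707 and 0.858 against 17.3 and 16.4 CPM. The death receptor gene FAS had 3.83 and 3.16 against 84.97 and 85.2 CPM, and ICAM1, the ligand of LFA-1, had 24.4 and 28.1 against 201 and 185 CPM. In contrast, 6 target genes were higher in U-2932, among them the chemokines CCL3, at 8.08 and 6.06 against 0.0954 and 0.51 CPM, and CCL4, at 55.4 and 59.0 against 5.44 and 4.18 CPM. CCR7, the receptor that guides B cells to lymph nodes, had 465 and 451 against 443 and 459.5 CPM and did not pass the test, with a log2 difference of 0.02 ± 0.06 (edgeR adjusted p = 0.76). In all, 6 of the 37 targets did not pass.

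The 250 bases upstream of the transcription start were read for the NF-kB consensus motif, on both strands, in RefSeq promoters of GRCh38.p14. A match was found in 12 of 30 NF-kB target genes with a promoter in the table (40%), and in 11.5% of 11545 tested genes with a promoter. Among genes beyond 2-fold, 12.5% of those higher in U-2932 and 12.7% of those lower had a match. Of the 21 target genes called lower with a promoter in the table, 9 had a match. The 4 of the target genes with a match and the widest difference are printed here, as examples of the letters found, with the matches in capitals. Each is read 5′ to 3′ on the gene's own strand and ends just before the transcription start.
EBI3 (chr19:4229273-4229522, plus strand): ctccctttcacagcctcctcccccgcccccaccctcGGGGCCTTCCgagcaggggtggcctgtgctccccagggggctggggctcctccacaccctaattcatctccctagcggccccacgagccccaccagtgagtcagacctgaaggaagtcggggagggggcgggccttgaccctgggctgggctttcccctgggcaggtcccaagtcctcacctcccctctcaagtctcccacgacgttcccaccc
CCL22 (chr16:57358533-57358782, plus strand): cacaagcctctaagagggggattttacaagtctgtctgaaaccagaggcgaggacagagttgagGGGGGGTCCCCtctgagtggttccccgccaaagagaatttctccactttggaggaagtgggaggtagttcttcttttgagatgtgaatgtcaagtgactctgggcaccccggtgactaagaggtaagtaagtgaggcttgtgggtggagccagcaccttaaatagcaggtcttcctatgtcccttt
CXCL10 (chr4:76023498-76023747, minus strand): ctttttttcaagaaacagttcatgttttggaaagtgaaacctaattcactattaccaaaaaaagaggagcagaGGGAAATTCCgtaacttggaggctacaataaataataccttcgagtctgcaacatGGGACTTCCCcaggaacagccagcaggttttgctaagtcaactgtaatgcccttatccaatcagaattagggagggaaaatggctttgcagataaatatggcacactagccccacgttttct
TNFAIP3 (chr6:137867009-137867258, plus strand): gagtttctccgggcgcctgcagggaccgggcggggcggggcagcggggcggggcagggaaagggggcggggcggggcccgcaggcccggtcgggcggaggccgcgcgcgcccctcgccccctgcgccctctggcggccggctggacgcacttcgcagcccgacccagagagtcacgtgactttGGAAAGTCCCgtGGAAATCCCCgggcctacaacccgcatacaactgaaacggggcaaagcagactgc
The EBI3 promoter held 1 match, and the others held 2, which overlap in CCL22 and lie 2 bases apart in TNFAIP3. A match describes the letters only. The composite element of ETS and IRF factors, searched on both strands, was found in 2.26% of all tested genes with a promoter, in 2.25% of those higher and in 2.59% of those lower in U-2932 beyond 2-fold.

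The MHC class II molecules, which present peptides to CD4+ T cells, were nearly silent in OCI-LY19 while the gene for their master regulator was not. HLA-DRA had 409.7 and 359.8 CPM in U-2932 against 2.05 and 3.26 CPM in OCI-LY19, a log2 difference of 7.18 ± 0.12. HLA-DPA1 had 197 and 176 against 3.29 and 2.85 CPM, HLA-DPB1 40.6 and 41.3 against 0.286 and 0.561 CPM and HLA-DMA, a chain of the peptide-loading chaperone, 72.2 and 66.7 against 4.77 and 5.4 CPM. OCI-LY3 had a mean of 5.64 CPM of HLA-DRA and SU-DHL-10 432 CPM. CIITA, the coactivator that switches these genes on, was lower in U-2932, at 73.0 and 74.8 against 214 and 236 CPM. CD74, the invariant chain that guides class II molecules, had 1815 and 1638 against 474 and 540.4 CPM. HLA-DQA1 ran against the other alpha chains, at 0.413 and 0.107 against 2.1 and 2.14 CPM. HLA genes vary between people, so reads of a donor's alleles may be counted unevenly, and this was not tested. LGMN and IFI30, which encode lysosomal enzymes that prepare antigen, were lower in U-2932. LGMN had 0 and 0.214 against 84.3 and 84.2 CPM and IFI30 had 0.648 and 0.643 against 13.98 and 10.2 CPM. Over the whole list of 19 tested genes, 11 were higher and 5 lower in U-2932, with 8 and 5 beyond 2-fold.

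MHC class I genes were mixed: 6 of 19 were higher and 8 lower in U-2932. HLA-C had 401 and 359.9 against 80.6 and 88.7 CPM, and TAP2, a peptide transporter, had 32.7 and 40.2 against 90.6 and 96.3 CPM. The interferon response genes were close to the background, with 22 of 46 higher and 18 lower, but a few differed widely. MX1, an antiviral GTPase, had 60.7 and 57.8 against 0.0477 and 0.153 CPM, MX2 66.0 and 62.8 against 1.34 and 0.663 CPM and LY6E, a membrane protein induced by interferon, 85.9 and 81.9 against 0.0954 and 0.357 CPM. IFIH1, the RNA sensor MDA5, was lower in U-2932, at 10.3 and 10.2 against 50.4 and 56.5 CPM. Of 30 costimulatory and adhesion genes, 17 were lower and 10 higher in U-2932, with a median of -0.56. CD84, a SLAM-family receptor, had 8.78 and 9.33 against 105 and 110.1 CPM, and the checkpoint ligand genes CD274 and PDCD1LG2 had 2.42 and 2.09 against 7.11 and 6.83 CPM and 0 and 0.0536 against 0.763 and 0.612 CPM. ITGB2, the beta chain of LFA-1, had 72.5 and 72.9 against 10.1 and 10.8 CPM. Of 24 surface antigens used as targets of lymphoma therapy, 14 were higher and 8 lower in U-2932, with 10 and 5 beyond 2-fold. Of those higher, FCRL5 had 257 and 271 against 3.72 and 3.82 CPM, CD70 703 and 676 against 199.96 and 182 CPM and CD79B 243 and 232 against 77.1 and 86.1 CPM. CD38, SLAMF7, CD274 and PDCD1LG2 were among those lower.

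The BCL2 family, which balances cell survival and death, was split. Of 19 tested members, 10 were higher and 7 lower, with 7 and 2 beyond 2-fold and a median of 0.95. The survival gene BCL2 had 1105 and 1186 CPM in U-2932 against 96.6 and 86.4 CPM in OCI-LY19, a log2 difference of 3.65 ± 0.07. MCL1, another survival gene, had 1341 and 1439 against 257 and 237 CPM. Some death-promoting members were higher as well: PMAIP1 (NOXA) had 1477 and 1729 against 195 and 172 CPM, BCL2L11 (BIM) 258 and 280.1 against 33.8 and 35.5 CPM and BMF 95.1 and 90.1 against 20.5 and 18.2 CPM. BCL2L1 and BCL2A1, survival members that are NF-kB targets, were lower in U-2932, at 41.9 and 39.9 against 70.3 and 57.2 CPM and 17.0 and 19.3 against 43.8 and 40.1 CPM. HRK, a death-promoting member, had 8.72 and 4.56 against 55.5 and 59.7 CPM.

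Genes of the brake on the G1 to S step differed. RB1, the retinoblastoma protein gene that holds E2F factors in check, had 6.48 and 6.59 CPM in U-2932 against 229.7 and 235 CPM in OCI-LY19, a log2 difference of -5.15 ± 0.09. CDKN2A, the locus of p16 and ARF, had 537 and 512 against 60.4 and 54.5 CPM, and its neighbour CDKN2B, encoding p15, had 31.7 and 35.9 against 1.48 and 1.58 CPM. MTAP, the next gene of that locus, did not differ by the test, with a log2 difference of -0.02 ± 0.08. CCNE1, encoding cyclin E, had 72.4 and 59.5 against 11.5 and 11.1 CPM. MYC, a driver of growth and ribosome production, had 779 and 807 against 157 and 150.4 CPM, beside a mean of 394 CPM in SU-DHL-10. Of 36 genes of G2 and mitosis, 20 were lower and 10 higher in U-2932, and of 36 replication genes 7 were lower and 16 higher. Genes of DNA damage checkpoint and repair were lower in 23 of 31 and higher in 7, with a median of -0.68. BRCA2 had 13.4 and 11.7 against 83.0 and 92.1 CPM, BRCA1 38.3 and 41.9 against 123 and 146 CPM, PMS2 23.6 and 23.9 against 92.1 and 96.7 CPM and NBN 35.8 and 35.0 against 122 and 122 CPM, each encoding a protein of break or mismatch repair.

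The apparatus for making and quality-checking proteins was higher in U-2932. Of 28 genes of the unfolded protein response, 20 were higher and 5 lower, with 14 and 1 beyond 2-fold and a median of 1.11. HSPA5, the main chaperone of the endoplasmic reticulum, had 1094 and 1069.6 against 375 and 393 CPM, HSP90B1, another, 974 and 989 against 314 and 346 CPM, and SEC61B, a subunit of the protein-conducting channel, 317 and 299 against 56.1 and 46.8 CPM. Of 36 proteasome genes, 26 were higher and 2 lower, with a median of 0.66, and PSMD2 had 799 and 771 against 268 and 274 CPM. Of 77 cytosolic ribosomal protein genes, 69 were higher and 2 lower, with 19 and 0 beyond 2-fold and a median of 0.83. Their summed level was 109020 to 119940 CPM in U-2932 and 63955 to 65864 CPM in OCI-LY19. RPS23 had 196 and 183 against 31.8 and 32.7 CPM and RPL36 1390.5 and 1324 against 343 and 233 CPM; such genes have many processed copies that can share reads.

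Genes of the respiratory chain and of sterol synthesis were higher in U-2932 too. Of 37 nuclear genes of complex I, 26 were higher and 4 lower (median 0.81), and of 39 genes of complexes II to V, 29 were higher and 3 lower (median 0.73). NDUFA11, a complex I subunit, had 50.7 and 54.5 against 9.83 and 7.65 CPM, SDHC, a membrane anchor of complex II, 106 and 108 against 22.6 and 19.8 CPM, and COX6B1, a complex IV subunit, 345 and 303 against 99.2 and 71.5 CPM. COX7A2, also of complex IV, was lower in U-2932, at 127 and 114 against 374 and 332 CPM. Of 76 mitochondrial ribosome genes, 46 were higher and 15 lower (median 0.46), and MRPS21 had 456 and 431 against 57.6 and 45.7 CPM. Cholesterol and fatty acid genes were higher in 23 of 31 and lower in 4 (median 0.66). The desaturase genes FADS2 and FADS1 had 125 and 111 against 1.29 and 1.48 CPM and 101 and 99.9 against 6.68 and 6.58 CPM. The 13 mRNAs encoded in mitochondria took 5.87% and 5.86% of gene counts in the U-2932 libraries and 4.24% and 6.22% in those of OCI-LY19. The OCI-LY19 libraries lie on either side of U-2932, and an exact two-sided permutation test gave p = 1, where the smallest p that 2 against 2 libraries allow is 0.333. Their median log2 difference was 0.60 with all libraries, 0.36 without OCI-LY19 replicate 1 and 0.94 without replicate 2.

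The line difference also moved with gene span over all genes. Among tested genes ranked by RefSeq span, the median log2 difference was 0.53 in the second decile (median span 4.72 kb) and -0.31 in the ninth (median span 105 kb). After the median of the gene's span decile was subtracted, the list medians were 0.43 for cytosolic ribosomal proteins, 0.56 for complex I, 0.35 for complexes II to V, 0.20 for the mitochondrial ribosome, 0.60 for the proteasome, 0.89 for the unfolded protein response and -0.52 for DNA repair. At 8 h the second and ninth deciles had medians of 0.07 and 0.11. Mitochondrial ribosomal RNA took 0.594% and 0.555% of gene counts in the U-2932 libraries at 0 h. It took 1.31% and 1.57% in those of OCI-LY19 and 0.780% and 0.670% in those of OCI-LY3. The part that RNA quality or library preparation played was not tested.

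**Figure D3:**
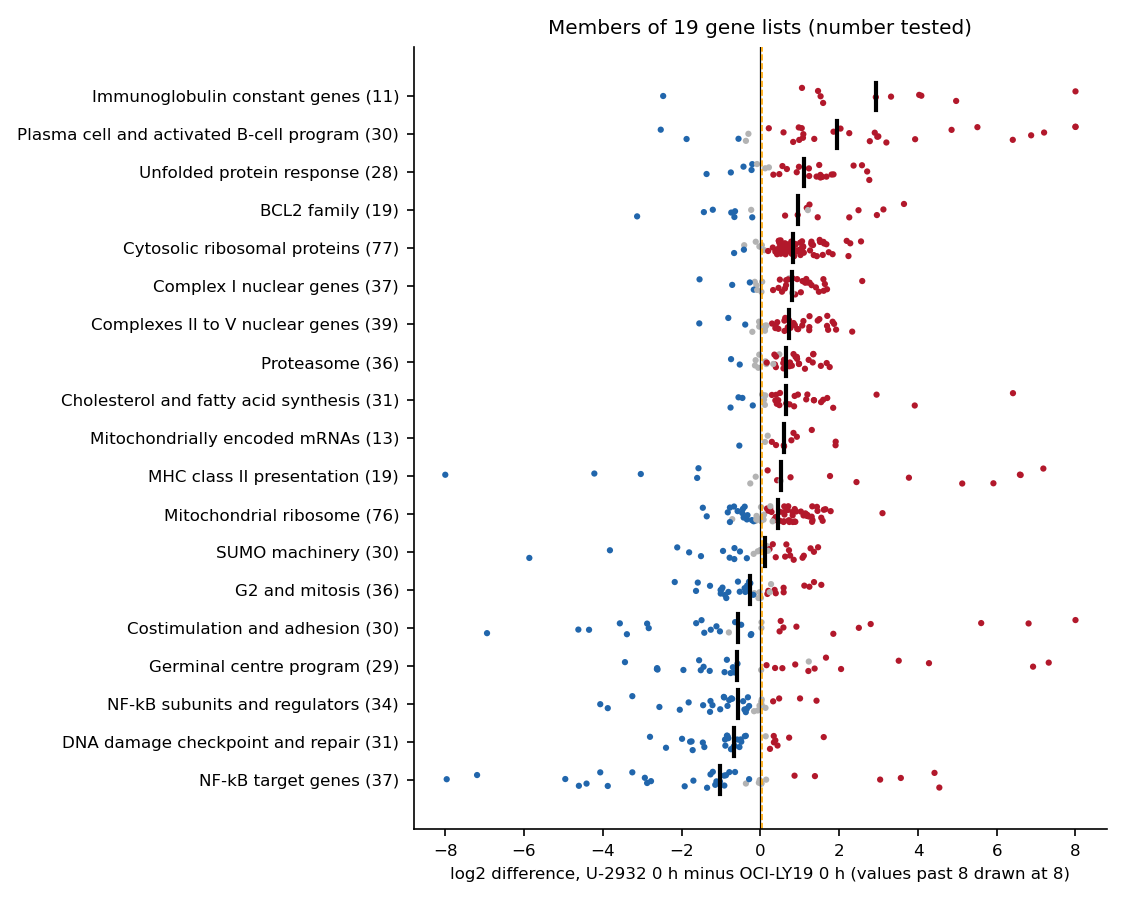
Log2 difference, U-2932 minus OCI-LY19 at 0 h, of each tested member of 19 gene lists (number tested in parentheses), red where higher and blue where lower at an adjusted p of 0.05, grey otherwise, with values past 8 drawn at 8. Black bars are list medians, from 2.93 for immunoglobulin constant genes to -1.03 for NF-kB targets, and the dashed line is the median of all genes, 0.03.

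Single genes of metabolism, stress response and chromatin differed widely, some of them with a very low level in 1 of the lines. PRDX2, a peroxidase that clears hydrogen peroxide, had 117 and 109 against 0.62 and 0.204 CPM, beside 0.231 CPM on average in OCI-LY3 and 164 CPM in SU-DHL-10. HK1, a hexokinase that starts glycolysis, had 114 and 107 against 4.34 and 4.49 CPM, the lactate exporter gene SLC16A3 57.9 and 52.4 against 1.38 and 1.17 CPM and the mitophagy receptor gene BNIP3 78.3 and 82.3 against 1.48 and 1.63 CPM. HSPB1, a small heat shock protein gene, had 39.1 and 37.1 against 0.239 and 0.255 CPM, whereas HSPH1, a co-chaperone of HSP70, had 121 and 133 against 777 and 899.7 CPM. The cystine transporter gene SLC7A11 had 13.3 and 11.3 against 144 and 119.7 CPM and the iron store gene FTH1 189.9 and 177 against 890.0 and 766 CPM, both lower in U-2932. Chromatin regulators mutated in lymphoma held both extremes, with HDAC9 at 85.2 and 108 against 1.0 and 1.38 CPM, the DNA methyltransferase gene DNMT3A at 41.8 and 39.9 against 0.859 and 1.12 CPM and ARID1B, a subunit of the BAF remodelling complex, at 30.1 and 32.7 against 147 and 172 CPM.

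The SUMO pathway attaches small SUMO proteins to targets through the E1 enzyme SAE1-UBA2, which TAK-981 inhibits, and removes them with SENP proteases. Before treatment, 13 of 30 tested genes of this machinery were higher in U-2932 and 11 lower, with 2 and 5 beyond 2-fold. These shares, 43.3% higher and 36.7% lower, were near the 37.0% and 33.6% of all tested genes. The list as a whole therefore did not stand out, and the genes below are single members. The E1 subunits went opposite ways: SAE1 had 264 and 241 against 195 and 191 CPM (log2 difference 0.39 ± 0.06, and 0.13 with an edgeR adjusted p of 0.48 under spike-in scaling) and UBA2 had 204 and 223 against 324 and 352 CPM (-0.66 ± 0.06). SUMO2 and SUMO3 were higher in U-2932, with log2 differences of 1.10 ± 0.07 and 1.27 ± 0.07. The widest gap among the abundant genes was in SENP6, the protease that trims SUMO2 and SUMO3 chains, with 42.8 and 47.9 CPM in U-2932 against 602 and 679 CPM in OCI-LY19. OCI-LY3 had a mean of 592 CPM and SU-DHL-10 86.7 CPM. SENP5 was higher in U-2932, at 92.7 and 104 against 36.5 and 34.7 CPM, and SENP1 lower, at 29.8 and 34.6 against 55.2 and 69.3 CPM. The ligase gene PIAS1 had 24.1 and 23.5 against 80.0 and 87.0 CPM. SUMO4, which lies within an intron of TAB2 on chromosome 6, had 0 and 0 against 0.191 and 0.51 CPM and lost its call without OCI-LY19 replicate 2 (edgeR adjusted p = 0.059). Without a stated strand setting, its reads and those of TAB2, lower as well at 31.6 and 35.4 against 132 and 145 CPM, cannot be told apart.

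Differences were shared by neighbouring genes along several chromosomes. The median log2 difference by chromosome ran from -1.24 on chromosome 13, where 177 of 278 tested genes were lower in U-2932, to 0.62 on chromosome 18, where 109 of 209 were higher. Medians of 25 neighbouring genes exceeded 1 in 681 of 14721 windows and were under -1 in 768. The longest run of low windows covered 180 tested genes of chromosome 13 from C1QTNF9B to TGDS, with 128 lower and 22 higher in U-2932 and a median of -1.54. RB1, BRCA2, FOXO1, HSPH1 and SLC7A1 lie in it. On chromosome 6, 164 genes from RNF146 to PDCD2 had a median of -1.71, with 122 lower, TNFAIP3, TAB2 and MTHFD1L among them, and 126 genes from CNR1 to VNN1 had a median of -1.40. On chromosome 19, 139 genes from ZNF599 to SHKBP1 had a median of 1.41, with 114 higher and COX6B1 among them, and 75 genes from LRG1 to CD320 had a median of 1.25, including RPL36, LONP1, NDUFA11, CD70 and VAV1. On chromosome 18, 69 genes from ZBTB7C to PTGR3 had a median of 1.56, with 43 higher and 15 lower. BCL2, TCF4, PMAIP1, LMAN1 and SEC11C lie in it. Some genes described above under other lists sit in such runs.

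These runs were found by the difference between U-2932 and OCI-LY19, so either line may stand apart in them. In the first 3 segments described next, both U-2932 libraries lay outside the range of the other lines. Relative to the mean of the 4 lines, the segment median on chromosome 13 was -0.70 and -0.73 in the U-2932 libraries, 0.47 and 0.54 in OCI-LY19, 0.38 and 0.44 in OCI-LY3 and -0.14 in both SU-DHL-10 libraries. For the chromosome 18 segment it was 1.01 and 0.85 in U-2932, and between -0.47 and -0.20 in the 6 libraries of the other lines. For the run from ZNF599 to SHKBP1 on chromosome 19 it was 0.96 and 1.00 in U-2932 and between -0.43 and -0.23 in the others. OCI-LY19 stood apart in a run of 45 genes on chromosome 20, from ZSWIM3 to DPM1, that was lower in U-2932. There it was 0.55 and 0.51 in OCI-LY19, and between -0.24 and -0.14 in the 6 libraries of the other lines, OCI-LY3 included. Copy number was not measured in these libraries.

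**Figure D4:**
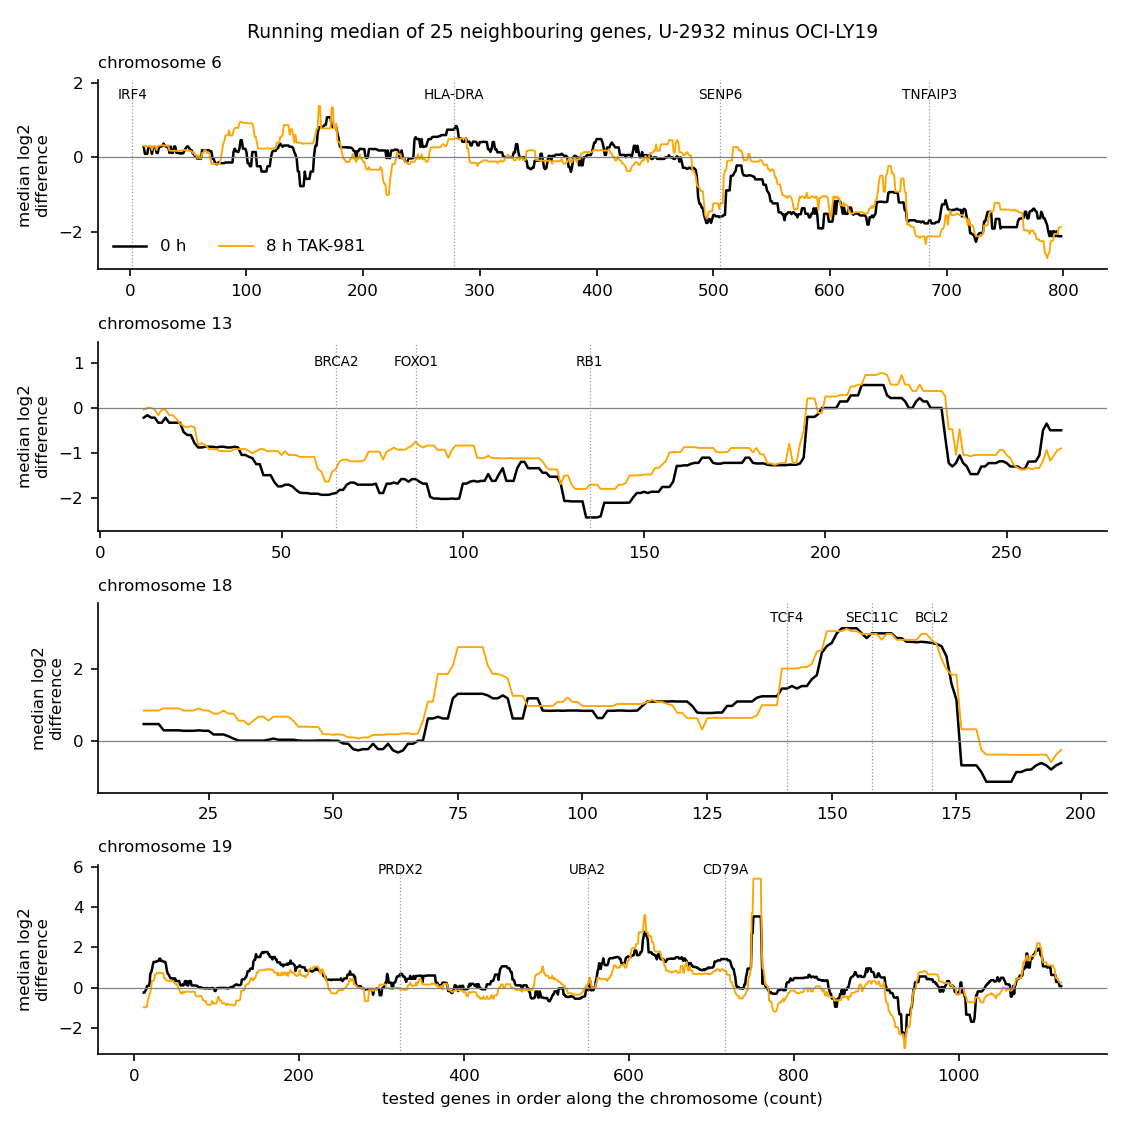
Running median of the log2 difference, U-2932 minus OCI-LY19, over 25 neighbouring tested genes on chromosomes 6, 13, 18 and 19, with genes in order on the x axis, black at 0 h and orange after 8 h of TAK-981. The low stretches around TNFAIP3 and RB1 and the high stretch around BCL2 were present at both times.

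After 8 h of TAK-981, 3077 genes (17.8%) were higher and 2153 (12.4%) lower in U-2932 beyond 2-fold. Of the 5644 genes beyond 2-fold at 0 h, 3461 (61.3%, and 66.2% of the 5230 at 8 h) were beyond 2-fold in the same direction, and 39 in the opposite one. The line difference itself changed between the times for 8006 genes (46.2%) by an interaction term in the same edgeR fit. The respiratory, ribosomal and unfolded protein lists, which were higher in U-2932 at 0 h, had medians of -0.03 for complex I, -0.42 for cytosolic ribosomal proteins and 0.00 for the unfolded protein response at 8 h. The NF-kB target list had a median of -3.88, beside -1.03 at 0 h. Among 46 genes chosen for both times, 30 were called in the same direction at both and 6 in opposite directions. RB1, HLA-DRA and MYC had differences of -4.58, 7.08 and 2.93 at 8 h. CCR7, not called at 0 h, had -3.89, and BATF went from 0.99 to -3.24. MME, BCL6 and CD38, lower in U-2932 at 0 h, had differences of 0.09, 0.75 and 0.17 at 8 h, of which that of MME did not pass.

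**Figure D5:**
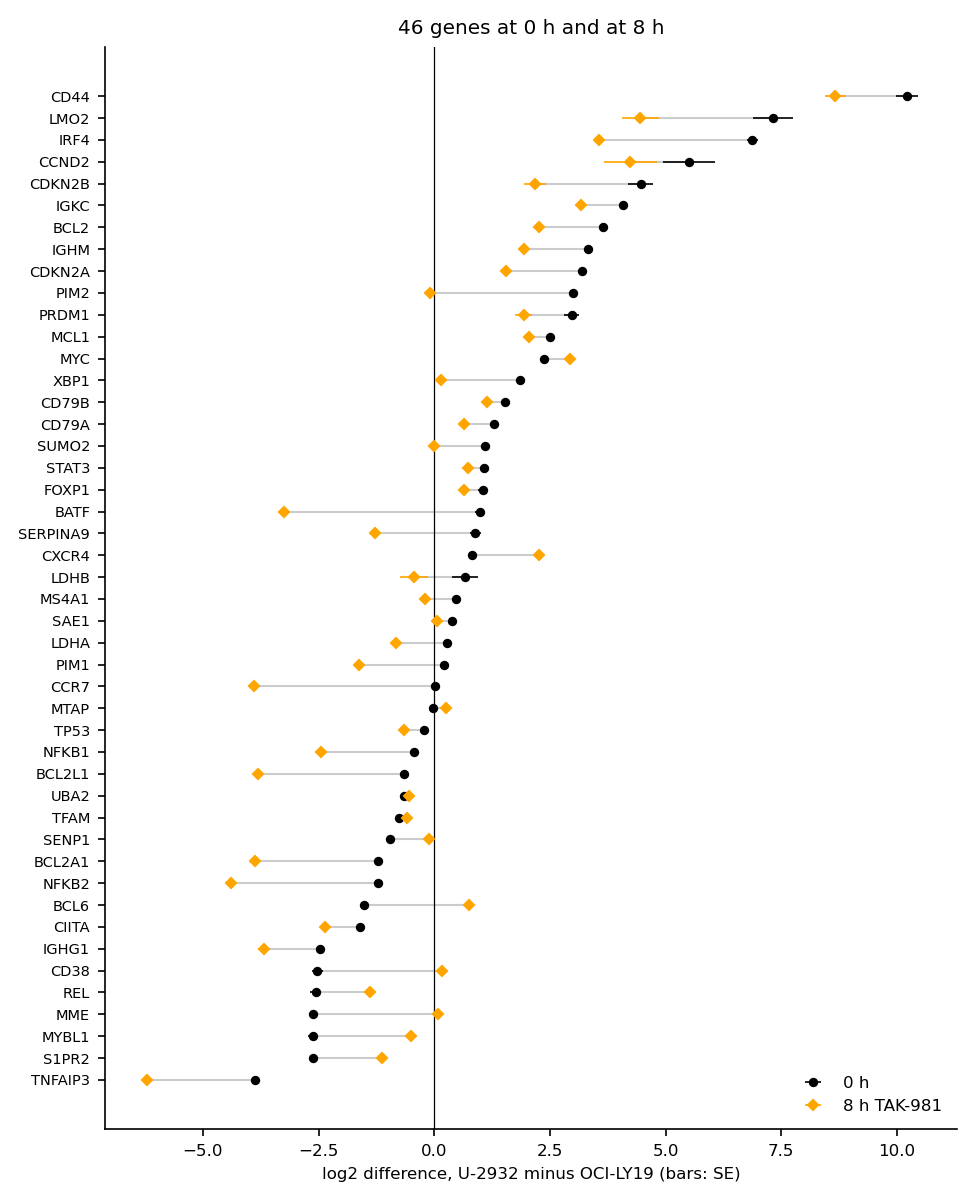
Log2 difference between U-2932 and OCI-LY19 for 46 genes, black circles at 0 h and orange diamonds after 8 h of TAK-981, with standard errors as bars and 2 libraries per line and time. IRF4 stays above 0 and TNFAIP3 below it at both times, while CCR7, BATF and BCL2L1 lie at -3.89, -3.24 and -3.80 at 8 h.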

How the data were processed

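The authors deposited a table of raw counts per gene from poly(A)-selected RNA, with 58676 gene IDs and 92 spike-in RNAs. Per the labels' protocols, RNA was extracted with a column kit and libraries were made by a sequencing service with removal of PCR duplicates. The submitters' processing notes name Bowtie2, DESeq2, HOMER, MACS2, Trimmomatic and bedtools and the builds GRCh38 and hg19, for the whole series and with no role given; the counting tool and its strand setting are not given in the sources used here. Symbols came from reference tables for 58207 IDs, and RefSeq placed 40137 on chromosomes. Chromatin accessibility files were not used here.

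Counts of all 16 RNA-seq libraries were fitted with 1 mean per line and time (edgeR 4.0.16 in R 4.3.3, TMM scaling, filterByExpr, quasi-likelihood test). Spike-in RNAs were left out of library sizes. Genes with an adjusted p (Benjamini-Hochberg) under 0.05 were called, and differences beyond 2-fold were tested with glmTreat. The 16 libraries held 16770677 to 24694466 gene counts, and the median biological coefficient of variation was 8.54%. On simulated counts with these library sizes (14561 genes, U-2932 against OCI-LY19 at 0 h), 88% of 1.5-fold changes and 100% of 2-fold changes were called. The changed genes, 50 for each fold, were drawn from better expressed genes only, and all other genes were set equal. These rates therefore do not cover genes with few counts or a comparison in which most genes differ. Gene lists are described by counts and medians beside all genes tested.

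Members and lists were chosen with earlier results of these data known. Named genes are the 12 highest and 12 lowest differences with at least 20 CPM in the higher line, the 10 largest differences in CPM, the 5 members of a list with the smallest p, and a panel of lymphoma genes. Outside the panel, mitochondrially encoded genes, pseudogenes, antisense transcripts and immunoglobulin variable segments were not eligible. CCL3, CD274, CXCL10, ETV6, HLA-DQA1, HRK, IFI30, IGLC2, NFKBIA, PDCD1LG2, RELA, SLAMF7 and SUMO4 fall outside that rule and were named after their values were seen. DESeq2 1.42.0 and limma 3.58.1 served as alternatives. Some genes of these lists are not reported here by name.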

Additional observations from a re-analysis of the deposited data

Results flagged for a closer look

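For 16 genes of the panel measured at both times, the line difference at 8 h of TAK-981 differed from that at 0 h by at least 2 on the log2 scale, with the difference itself called by an interaction term in the edgeR fit. They are values from a time outside the untreated comparison. The difference, U-2932 minus OCI-LY19, was lower at 8 h than at 0 h for 12 of them. It changed by -4.23 for BATF, -3.30 for IRF4 and -2.87 for LMO2, all transcriptional regulators, and by -2.17 for SERPINA9, a protease inhibitor gene used as a germinal centre marker. The NF-kB subunit genes NFKB2 and NFKB1 changed by -3.17 and -2.02, the inhibitor gene TNFAIP3 by -2.32 and the receptor gene CCR7 by -3.91. The survival genes BCL2L1, PIM2 and BCL2A1 changed by -3.16, -3.10 and -2.67, and the cell cycle inhibitor gene CDKN2B by -2.28. For the other 4, all lower in U-2932 at 0 h, it changed the other way, by 2.13 for MYBL1, 2.27 for BCL6, 2.69 for CD38 and 2.70 for MME. No cause of these changes was tested.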

How the results depend on the processing

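The count of genes called stayed within 1.5 times of 12234 under all alternatives run. It was 12251 with RLE scaling, 12224 with total counts, 11244 with spike-in scaling, 12211 with no filter, 9348 with the strict filter (at least 5 CPM in at least 2 libraries), 11138 with the 4 libraries alone, 11255 with the 8 libraries at 0 h, 11668 with voom weights and 11443 with DESeq2. Without 1 library it ranged from 11384 to 11721, and beyond 2-fold from 5038 to 5414. Beyond 2-fold the count fell from 5644 to 3723 under the strict filter, where fewer genes were tested, and to 2693 with a 4-fold threshold. Of called genes, 52.4% were higher in U-2932 on the TMM scale, 46.5% with total counts (5682 higher, 6542 lower) and 42.0% with spike-in scaling (4721 higher, 6523 lower). Total counts moved the median of all genes by -0.13. With the replicate number as a block, 12140 genes were called and 5576 beyond 2-fold. Same-numbered libraries of U-2932 and OCI-LY19 at 0 h did not deviate together (correlation 0.0054). Whether the numbers pair 0 h with 8 h within a line was not tested.

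Chromosome medians under spike-in scaling were -1.50 for chromosome 13, -0.65 for 8, -0.75 for 20, -0.60 for 6, 0.22 for 19 and 0.35 for 18, in place of -1.24, -0.39, -0.48, -0.34, 0.49 and 0.62. Under the strict filter they were -1.37 for 13, -0.47 for 8, 0.54 for 19 and 0.45 for 18. The mitochondrial mRNA share was 0.632 percentage points higher in U-2932, and without 1 library it ranged from -0.357 to 1.622. Of 19 list medians checked, 16 moved beyond the spread between library pairs with spike-in scaling and 14 with total counts. After the medians of gene-span deciles were subtracted, 14 moved. Only that of the SUMO machinery reversed: it was 0.13, -0.022 with total counts and -0.13 with spike-in scaling. Of 160 named genes, 157 were called, and 3 of those lost the call under an alternative: MS4A1 (0.21) and SAE1 (0.13) with spike-in scaling and SUMO4 without OCI-LY19 replicate 2. None reversed. The 3 genes not called changed sign: CCR7 to -0.12 with total counts and -0.24 with spike-in scaling, RELA to -0.018 and -0.14 (though called at 0.16 with RLE scaling), and MTAP to 0.0086 with RLE scaling or DESeq2. Without 1 library, CCR7 ranged from -0.0092 to 0.0449 and MTAP from -0.0836 to 0.0352. The cause was not tested. Gene-span and mean-level medians were subtracted as alternatives chosen after seeing the data. Depth limits genes with few counts: a count of 0 allows up to 3 counts. The standard errors come from the same fit as the p-values. They rest only on the spread between replicate libraries, shared over all 16 RNA-seq libraries, those at 8 h included.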

Other observations

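Counts for further lists stand beside 37.0% of all tested genes higher and 33.6% lower in U-2932. Of 30 genes of B-cell receptor signalling, 16 were higher and 9 lower, and of 25 lineage factors 15 and 8. Of 35 JAK-STAT genes, 16 were higher and 13 lower, and of 28 death receptor and caspase genes 10 and 9. Of 24 chemokines and chemokine receptors, 11 were higher and 11 lower. Of 25 G1 genes, 13 were higher and 8 lower, and of 29 p53 targets 12 and 15. Of 35 MYC targets of ribosome biogenesis, 18 were higher and 10 lower. Of 26 glycolysis genes, 12 were higher and 11 lower, of 24 genes of the TCA cycle 8 and 14, and of 24 genes of amino acid transport and serine synthesis 7 and 15. Of 22 genes of ATF4 and amino acid stress, 5 were higher and 11 lower. Of 19 heat shock genes, 6 were higher and 11 lower, of 25 NRF2 and antioxidant genes 12 and 10, and of 27 chromatin regulators 11 and 15.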
